A study of Mus musculus with 4 samples.

Results

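Respiratory complexes II to V were represented by 47 nuclear genes on the arrays, out of 19938 genes that the array annotation names by a single symbol. They were taken by symbol alone, as every gene for a subunit of succinate dehydrogenase (Sdha to Sdhd), the cytochrome bc1 complex (Uqcr genes and Cyc1), the cytochrome c oxidase subunits numbered from Cox4 to Cox8, and ATP synthase (Atp5 genes), with the brightest probe set standing for a gene that had several. Complex II had 4 members, complex III 9, complex IV 16 and complex V 17. Cox7a2l, which the same pattern takes, encodes a protein that ties complexes III and IV into supercomplexes and was kept apart as the remaining member. Cox7c is named together with a predicted gene on all 3 of its probe sets and is therefore not among the 47.

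The data are 3 arrays of hearts lacking MAFbx and 1 array of a wild type heart, all from mice operated on by transverse aortic constriction (TAC), in which the aortic arch is narrowed so that the left ventricle pumps against higher pressure. MAFbx, also called atrogin-1 and encoded by Fbxo32, is the substrate-binding part of a muscle ubiquitin ligase. RNA of the whole heart was taken 1 week after surgery and hybridised to Affymetrix Mouse Gene ST arrays, and values are RMA expression on the log2 scale. The labels give no age, strain, sex or deleted exon, name no sham-operated heart, and do not state that each array is a separate animal, so the spread below may be partly technical. In what follows, a knockout or wild type heart stands for 1 array.

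The complexes hand electrons from succinate (complex II) and ubiquinol (complex III) to oxygen (complex IV), and the proton gradient built on the way drives ATP synthase (complex V). The heart makes most of its ATP this way, and its cytochrome c oxidase carries muscle isoforms of some small subunits, in mouse Cox6a2, Cox7a1 and Cox8b, beside the more widely expressed Cox6a1, Cox7a2 and Cox8a. Complexes III, IV and V also contain subunits encoded by mitochondrial DNA, which the rule does not cover.

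Fbxo32 read 5.65, 5.61 and 5.56 in the knockout hearts and 7.54 in the wild type heart, in the direction of the labels. Where its probe set lies relative to the deletion was not analysed here. The median reading over the 14955 tested genes was 6.83 to 6.84 on the knockout arrays and 6.86 on the wild type array. The arrays also differed in sex-linked transcripts, and not along genotype. Xist, transcribed from the inactive X chromosome, read 9.18, 9.52 and 3.20 in knockouts 1, 2 and 3 and 4.13 in the wild type heart, and the Y-linked Eif2s3y read 3.31, 3.64 and 8.49 in the knockouts and 8.57 in the wild type heart. Knockout 3 is therefore the knockout heart that shares the sex-linked pattern of the wild type heart, and its own difference from wild type is given beside the medians of the complexes. Genotype and this split cannot be fully told apart with 4 arrays.

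Most members read a little higher in the knockout hearts, and none passed the test. The mean of the knockout arrays lay above the wild type array for 45 of the 47 genes and below it for Sdhc and Cox8c. Among all 14955 genes tested it lay above for 7481. The 5 largest log2 fold changes belonged to Cox6a1, Uqcr11, Cox8b, Atp5l and Uqcr10. Over the 47 members the median log2 fold change (knockout mean minus wild type) was 0.17, against 0.00 over all genes tested. Members ranged from -0.14 for Cox8c to 0.78 for Cox6a1.

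For 33 members all 3 knockout arrays lay above the wild type array, and for 0 members did all 3 lie below it. Over all genes tested these shares were 23.9% above and 24.6% below. Genes of one pathway move together, so the member count describes these 4 arrays and is no test. In limma (two-sided, Benjamini-Hochberg adjustment over all genes tested) 0 of the 46 tested members were called in either direction, where 0.00669% of all genes were called, namely Hmox1 alone. Without adjustment, 3 members had a limma p under 0.05 and were higher (Cox6a1, Uqcr11 and Uqcr10) and 0 had one and were lower, against 1.68% of all genes higher and 4.05% lower. The smallest adjusted p among the members was 0.536, for Cox6a1. With a lone wild type array, whose spread is taken from the knockout arrays, an exact permutation test cannot give a p below 0.25, and missing the threshold leaves the size of a difference undecided.

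The size of the difference varied between the knockout arrays. The median over the 47 members was 0.25 in knockout 1, 0.24 in knockout 2 and 0.07 in knockout 3, each minus wild type. Knockout 3 was the lowest of the knockout arrays for 37 members, and knockout 1 the highest for 31. Over all 14955 genes tested, knockout 3 was the lowest for 5483 and knockout 1 the highest for 4876. In knockout 3 alone, 36 of the 47 members still read above wild type, and 1 equalled it. Among all 14955 genes tested, 7045 read above wild type in knockout 3 and 325 equalled it. Over all genes tested the corresponding medians were 0.01, 0.00 and -0.01.

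**Figure D1:**
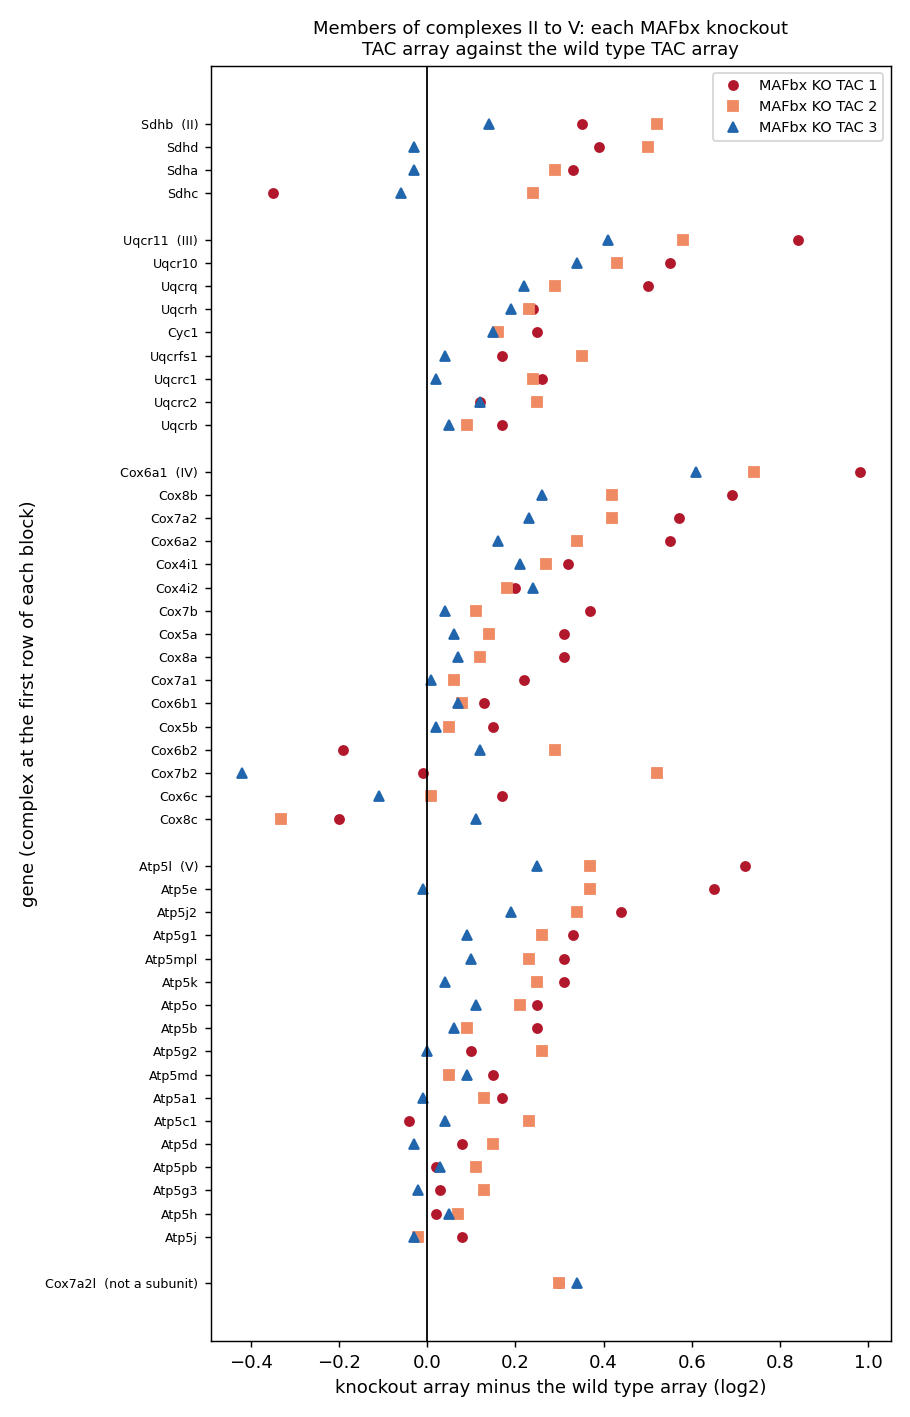
Difference of each MAFbx knockout TAC array from the wild type TAC array (x axis, log2) for all 47 members (rows, grouped by complex and ordered by mean difference). Each symbol is 1 knockout array and the vertical line marks the wild type reading. For 33 members all 3 symbols lie to the right of the line, and knockout 3 (triangles) is the leftmost for 37.

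**Figure D2:**
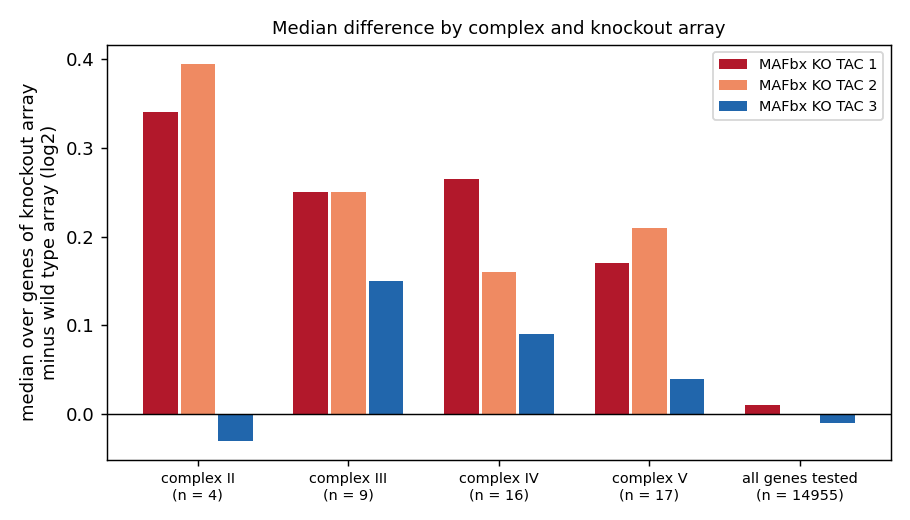
Median difference from the wild type TAC array (y axis, log2) over the genes of each complex and over all 14955 genes tested. Each bar is 1 MAFbx knockout TAC array. The bars of knockouts 1 and 2 lie between 0.16 and 0.40 in every complex, that of knockout 3 between -0.03 and 0.15, and those of all genes between -0.01 and 0.01.

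Complex II, succinate dehydrogenase, is the one complex of the chain with no mitochondrially encoded subunit and is also an enzyme of the citric acid cycle. Its 4 genes split by heart. Sdhb, the iron-sulfur subunit, read 11.14, 11.31 and 10.93 in the knockout hearts and 10.79 in the wild type heart, and was the 1 member of the complex with every knockout above wild type (log2 fold change 0.34, SE 0.21, limma adjusted p = 0.923). Sdha, the flavoprotein that oxidises succinate, read 12.06, 12.02 and 11.70 in the knockout hearts and 11.73 in the wild type heart. Sdhd, a membrane anchor, read 10.97, 11.08 and 10.55 in the knockout hearts and 10.58 in the wild type heart. For both genes knockouts 1 and 2 were high and knockout 3 lay 0.03 below wild type, so the groups overlapped. The log2 fold change of Sdhd was 0.18 without knockout 2 and 0.445 without knockout 3. Sdhc, the other membrane anchor, behaved differently, with 10.65, 11.24 and 10.94 in the knockout hearts and 11.0 in the wild type heart. Knockout 1, which was high for Sdha, Sdhb and Sdhd, was the lowest of the 4 arrays for Sdhc. The complex median was 0.24, or 0.37 without knockout 3, and in knockout 3 alone it was -0.03.

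All 9 complex III genes read above wild type on every knockout array, with a median log2 fold change of 0.19. In knockout 3 alone the median was 0.15. Uqcr11, Uqcr10 and Uqcrq, all small subunits, had the largest differences, whereas Uqcrb, also small, had the smallest of the complex (0.10). Uqcr11, a small subunit of the membrane part, read 10.03, 9.77 and 9.60 in the knockout hearts and 9.19 in the wild type heart, a 1.53-fold higher mean (log2 fold change 0.61, SE 0.22, limma adjusted p = 0.742). Uqcr10, another small subunit, read 9.68, 9.56 and 9.47 in the knockout hearts and 9.13 in the wild type heart, 1.36-fold higher in the mean (log2 fold change 0.44, SE 0.18, limma adjusted p = 0.847). The lowest knockout array lay 0.41 above wild type for Uqcr11 and 0.34 above it for Uqcr10, so the groups did not overlap. With 1 wild type array this is common, as 23.9% of all genes tested lay wholly above wild type and 24.6% wholly below.

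Uqcrq, known as a ubiquinone-binding subunit, read 10.80, 10.59 and 10.52 in the knockout hearts and 10.30 in the wild type heart. Uqcrh, the acidic hinge protein at the cytochrome c1 docking face, read 11.73, 11.72 and 11.68 in the knockout hearts and 11.49 in the wild type heart. The knockout values of Uqcrh lay within 0.05 of each other, and lay 0.19 to 0.24 above wild type (log2 fold change 0.22, SE 0.17, limma adjusted p = 0.945). The remaining 5 genes, Cyc1 (cytochrome c1), Uqcrfs1 (the Rieske iron-sulfur protein), the core proteins Uqcrc1 and Uqcrc2, and Uqcrb, had log2 fold changes from 0.10 to 0.19. The 4 core, cytochrome and Rieske genes had a median of 0.18 (0.08 in knockout 3 alone). The 5 small subunits, Uqcrb included, had a median of 0.34 and ranged from 0.10 to 0.61 (median 0.22 in knockout 3 alone).

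Complex IV gave the widest range among its genes. Of 16 members 12 (75.0%) read above wild type on every knockout array and 0 below, against 23.9% and 24.6% of all genes tested. The median log2 fold change was 0.17, or 0.10 without knockout 1. In knockout 3 alone the median was 0.09. Cox6a1 led all 47 members.

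Cox6a1 and Cox6a2 encode the ubiquitous and the heart and muscle form of subunit VIa, a regulatory subunit at the dimer contact. Cox6a1 read 10.19, 9.95 and 9.82 in the knockout hearts and 9.21 in the wild type heart, 1.71-fold higher in the mean (log2 fold change 0.78, SE 0.20, limma adjusted p = 0.536). Cox6a2 read 12.45, 12.24 and 12.06 in the knockout hearts and 11.90 in the wild type heart (log2 fold change 0.35, SE 0.21, limma adjusted p = 0.923). Neither gene's groups overlapped (23.9% of all genes tested lay wholly above wild type), and in both knockout 1 was highest and knockout 3 lowest. Levels of different probe sets cannot be set against each other, but their difference can be followed between arrays. The Cox6a2 minus Cox6a1 difference was lower than in the wild type heart by nearly the same amount on every knockout array, with changes of -0.43, -0.40 and -0.45 (mean -0.43 ± 0.03, SD, n = 3). Each change subtracts the same wild type difference of 2.69, so the SD is the spread of the knockout arrays alone. Renewed quantile normalization moved the mean change to -0.54. In knockout 3, the lowest knockout array for most members, the change was no smaller than in the other knockouts.

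Subunit VIIa gave the same direction with a smaller change. Cox7a2, its ubiquitous form, read 10.42, 10.27 and 10.08 in the knockout hearts and 9.85 in the wild type heart (log2 fold change 0.41, SE 0.20, limma adjusted p = 0.908). Cox7a1, its heart and muscle form, read 12.57, 12.41 and 12.36 in the knockout hearts and 12.35 in the wild type heart, so that knockout 3 lay only 0.01 above wild type (log2 fold change 0.10, SE 0.18, limma adjusted p = 0.993). The Cox7a1 minus Cox7a2 difference was lower by 0.31 ± 0.08 (SD, n = 3) than in the wild type heart, where the SD is again the spread of the knockout arrays alone.

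Subunit VIII went the other way. Cox8b, the heart and muscle form, read 12.07, 11.80 and 11.64 in the knockout hearts and 11.38 in the wild type heart (log2 fold change 0.46, SE 0.22, limma adjusted p = 0.890). Cox8a, the ubiquitous form, read 9.82, 9.63 and 9.58 in the knockout hearts and 9.51 in the wild type heart (log2 fold change 0.17, SE 0.19, limma adjusted p = 0.973). The Cox8b minus Cox8a difference was higher by 0.29 ± 0.10 (SD of the knockout arrays alone, n = 3) than in the wild type heart. Against the ubiquitous form, the muscle form was thus lower for subunits VIa and VIIa and higher for subunit VIII, with no test of these differences. The muscle forms read near 12 and their partners near 10. Among members reading 9 or above, brighter ones had a smaller median difference, and the part of the reading level in these isoform differences was not tested. Without knockout 1 the log2 fold change was 0.035 for Cox7a1 and 0.095 for Cox8a. All 6 genes read above wild type on every knockout array, as did 23.9% of all genes tested.

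**Figure D3:**
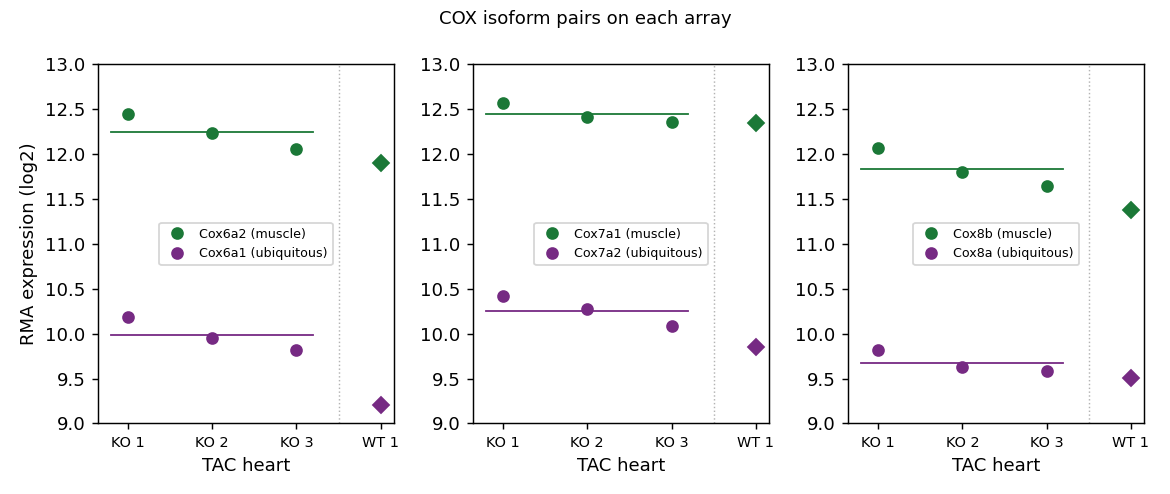
RMA expression (y axis, log2) of the heart and muscle form (green) and the ubiquitous form (purple) of 3 cytochrome c oxidase subunits in each TAC heart; circles are the 3 MAFbx knockout hearts, lines their mean, and diamonds the wild type heart. Cox6a1 shows the widest step between knockouts (9.82 to 10.19) and wild type (9.21), and Cox7a1 the narrowest (12.36 to 12.57 against 12.35).

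Other isoforms of complex IV had smaller differences than Cox6a1. Cox4i1, the common form of subunit IV, read 11.94, 11.89 and 11.83 in the knockout hearts and 11.62 in the wild type heart (log2 fold change 0.27, SE 0.17, limma adjusted p = 0.925). Cox4i2, the form known from lung and induced by low oxygen, read 7.32, 7.30 and 7.36 in the knockout hearts and 7.12 in the wild type heart (log2 fold change 0.21, SE 0.17). Both kept all knockout arrays above wild type, and Cox4i2 was 1 of 3 members that were highest in knockout 3. Cox6b1, the common form of subunit VIb, read 11.94, 11.89 and 11.88 in the knockout hearts and 11.81 in the wild type heart. Its log2 fold change of 0.09 turned to -0.030 when quantile normalization was renewed. Cox7b, the X-linked common form of subunit VIIb, read 11.94, 11.68 and 11.61 in the knockout hearts and 11.57 in the wild type heart (log2 fold change 0.17, or 0.075 without knockout 1).

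The isoforms known from testis gave low readings with no shared direction. Cox6b2 read 5.50, 5.98 and 5.81 in the knockout hearts and 5.69 in the wild type heart. Cox8c read 4.65, 4.52 and 4.96 in the knockout hearts and 4.85 in the wild type heart, just above the filter level of 4.70. Cox7b2 read 3.28, 3.81 and 2.87 in the knockout hearts and 3.29 in the wild type heart, below that level, and is the 1 member that was not tested. Each had knockout arrays on both sides of wild type. The subunits with no tissue isoform, Cox5a, Cox5b and Cox6c, had log2 fold changes of 0.17, 0.07 and 0.02.

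Cox7a2l, the supercomplex factor, read 9.69, 9.69 and 9.73 in the knockout hearts and 9.39 in the wild type heart. The knockout arrays differed by 0.04 at most and all lay at least 0.30 above wild type (log2 fold change 0.31, SE 0.17, limma adjusted p = 0.923). Unlike most members it was highest in knockout 3.

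All 17 ATP synthase genes had a knockout mean above wild type, by the smallest median of the complexes, 0.12. For 10 of them (58.8%) all knockout arrays lay above wild type, against 23.9% of all genes tested. The median was 0.17 in knockout 1, 0.21 in knockout 2 and 0.04 in knockout 3. The 5 small membrane subunits, which sit where ATP synthase dimers form, had a median of 0.21 (0.10 in knockout 3 alone) and every knockout array above wild type. Among them Atp5l, subunit g, read 11.03, 10.68 and 10.56 in the knockout hearts and 10.31 in the wild type heart (log2 fold change 0.45, SE 0.23, limma adjusted p = 0.923). Atp5j2, subunit f, read 12.28, 12.18 and 12.03 in the knockout hearts and 11.84 in the wild type heart (log2 fold change 0.32, SE 0.19, limma adjusted p = 0.923). The others were Atp5mpl at 0.21, Atp5k at 0.20 and Atp5md at 0.10.

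The catalytic head and central stalk, Atp5a1, Atp5b, Atp5c1, Atp5d and Atp5e, had a median of 0.10 (-0.01 in knockout 3 alone), and of these Atp5b alone kept every knockout array above wild type. Atp5b is the catalytic beta subunit, and its log2 fold change was 0.13. Atp5e, the small epsilon subunit of the central stalk, read 10.41, 10.13 and 9.75 in the knockout hearts and 9.76 in the wild type heart. Its knockout mean was 0.34 higher on the log2 scale (SE 0.26, limma adjusted p = 0.945), from knockouts 1 and 2, since knockout 3 equalled wild type within 0.01. Without knockout 1 the log2 fold change of Atp5e was 0.18.

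The genes Atp5g1, Atp5g2 and Atp5g3 encode the same mature c subunit of the proton-driven ring and differ in their import sequences. Atp5g1 read 12.16, 12.09 and 11.92 in the knockout hearts and 11.83 in the wild type heart (log2 fold change 0.23, SE 0.18, limma adjusted p = 0.955). Atp5g2 read 11.26, 11.42 and 11.16 in the knockout hearts and 11.16 in the wild type heart. Atp5g3 read 12.77, 12.87 and 12.72 in the knockout hearts and 12.74 in the wild type heart. Atp5g1 alone of the 3 paralogs had no overlap between the groups, where 23.9% of all genes tested lay wholly above wild type. Without knockout 2 the log2 fold change was 0.05 for Atp5g2 and 0.005 for Atp5g3. The peripheral stalk genes Atp5pb, Atp5h, Atp5j and Atp5o had the lowest median of the parts of the enzyme, 0.05, with Atp5o at 0.19 and Atp5j at 0.01.

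The difference was related to the probe set reading. Over the 47 members the Spearman correlation of the mean reading with the log2 fold change was -0.40, across genes that share the same arrays and normalization, whereas over all genes tested it was 0.00. The 14 members reading 9 to 11 had a median of 0.33, the 11 reading 11 to 12 a median of 0.20, and the 18 at 12 or above a median of 0.10. The members reading under 9 are outside these ranges and did not continue the order. They were Cox4i2 at 0.21, Cox6b2 at 0.07, Cox7b2 at 0.03 and Cox8c at -0.14. The other genes in the same ranges had medians of 0.01, 0.08 and 0.04. At 12 or above, 12 of the 18 members had every knockout array above wild type, against 36.2% of the 69 other genes. Bright probe sets can approach the upper end of the scale, where differences shrink, and the part of this in the smaller values of complex V was not tested.

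**Figure D4:**
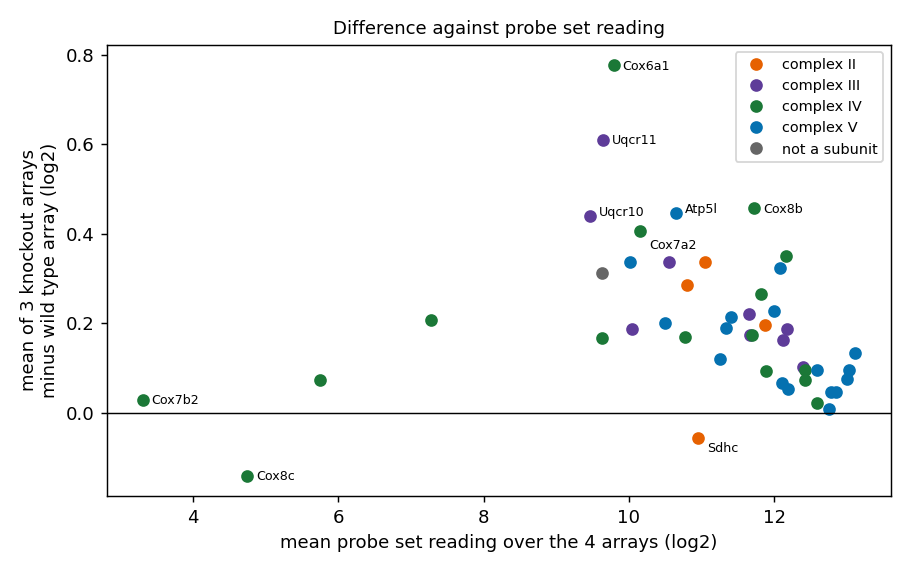
Mean of the 3 MAFbx knockout TAC arrays minus the wild type TAC array (y axis, log2) against the mean reading over the 4 arrays (x axis, log2); each point is 1 of the 47 members, coloured by complex. The largest differences, 0.78 for Cox6a1 and 0.61 for Uqcr11, lie at readings between 9 and 10, and the members at 12 or above lie between 0.01 and 0.35.

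Where a member had several probe sets, their mean differences had the same direction. This held for all 12 such genes, and the log2 fold changes of 1 gene's probe sets differed by at most 0.09 (Cox7a2l). Single arrays could differ in direction. A less bright probe set of Atp5pb read 11.03, 11.22 and 10.99 in the knockout hearts and 11.07 in the wild type heart. For Atp5h such a probe set read 11.47, 11.57 and 11.68 in the knockout hearts and 11.52 in the wild type heart. The 6 probe sets of Atp5l gave values from 0.43 to 0.45, and both of Uqcr11 gave 0.61 and 0.64. Genes of these complexes are known to have near-identical pseudogene copies, whose signal such probe sets cannot tell apart, so these are not independent measurements.

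Promoters of these genes are known for sites of the nuclear respiratory factors NRF-1 and NRF-2 (GABP), of YY1 and of the estrogen-related receptors (ERR), and those of muscle genes for MEF2 sites. RefSeq promoter windows (GRCm38.p6, 250 bases before to 50 after the start) were at hand for 35 members and for 27025 genes in all, coding and noncoding. Shown are the windows of Uqcr11 and of the COX isoform genes Cox6a1, Cox7a2, Cox8a, Cox7a1 and Cox8b, written 5′ to 3′ on the gene's strand. Capitals mark matches on either strand to the NRF-1 motif GCGCNTGCG in Cox6a1 and Uqcr11 and to the GABP motif CCGGAAGT in Cox8a and Uqcr11, and the other windows held none of the motifs searched.
Cox6a1 (chr5:115348909-115349208, minus strand): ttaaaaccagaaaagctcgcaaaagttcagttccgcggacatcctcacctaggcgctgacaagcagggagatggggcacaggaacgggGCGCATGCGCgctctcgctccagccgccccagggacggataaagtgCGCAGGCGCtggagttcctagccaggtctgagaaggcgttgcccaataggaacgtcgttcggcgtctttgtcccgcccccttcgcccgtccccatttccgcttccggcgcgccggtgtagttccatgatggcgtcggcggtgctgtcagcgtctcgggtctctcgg
Cox7a2 (chr9:79759804-79760103, minus strand): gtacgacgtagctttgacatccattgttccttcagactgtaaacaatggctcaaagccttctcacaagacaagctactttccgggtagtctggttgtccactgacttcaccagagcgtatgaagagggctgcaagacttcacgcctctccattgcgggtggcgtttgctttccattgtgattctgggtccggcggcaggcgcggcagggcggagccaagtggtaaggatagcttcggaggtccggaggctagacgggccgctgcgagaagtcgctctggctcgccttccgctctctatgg
Cox8a (chr19:7217567-7217866, minus strand): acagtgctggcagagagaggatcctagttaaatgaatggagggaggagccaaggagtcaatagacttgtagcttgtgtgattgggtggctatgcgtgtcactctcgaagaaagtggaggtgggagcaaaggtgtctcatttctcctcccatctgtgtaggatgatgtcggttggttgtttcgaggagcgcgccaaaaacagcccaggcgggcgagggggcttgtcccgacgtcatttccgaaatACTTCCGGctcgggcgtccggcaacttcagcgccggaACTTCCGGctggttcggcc
Cox7a1 (chr7:30183921-30184220, plus strand): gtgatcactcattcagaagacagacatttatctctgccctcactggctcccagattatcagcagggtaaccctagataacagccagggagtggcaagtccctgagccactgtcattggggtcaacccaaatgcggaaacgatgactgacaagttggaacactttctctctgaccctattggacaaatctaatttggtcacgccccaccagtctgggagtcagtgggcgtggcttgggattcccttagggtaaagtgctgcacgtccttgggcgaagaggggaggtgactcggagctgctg
Cox8b (chr7:140900397-140900696, minus strand): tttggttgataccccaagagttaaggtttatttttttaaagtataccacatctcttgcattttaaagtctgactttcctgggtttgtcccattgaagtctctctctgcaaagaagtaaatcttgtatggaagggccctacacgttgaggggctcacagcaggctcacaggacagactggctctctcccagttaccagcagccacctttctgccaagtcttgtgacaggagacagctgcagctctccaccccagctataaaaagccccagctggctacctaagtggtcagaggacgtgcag
Uqcr11 (chr10:80406772-80407071, minus strand): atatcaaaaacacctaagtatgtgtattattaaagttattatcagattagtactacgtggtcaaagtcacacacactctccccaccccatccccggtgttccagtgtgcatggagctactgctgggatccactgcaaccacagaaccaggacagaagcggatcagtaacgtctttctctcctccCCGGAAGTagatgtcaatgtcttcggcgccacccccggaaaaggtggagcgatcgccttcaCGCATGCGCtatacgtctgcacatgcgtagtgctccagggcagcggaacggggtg

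The NRF-1 motif occurred in the windows of 15 of the 35 members (42.9%), against 7.12% of all genes. By complex it was found in 2 of 3 windows of complex II, 3 of 5 of complex III, 1 of 11 of complex IV (Cox6a1) and 9 of 15 of complex V. The GABP motif matched 4 members (11.4%, against 4.31%). YY1 (AAGATGGC) matched 3 members (8.57%, against 3.19%), ERR (TCAAGGTCA) matched 2 (5.71%, against 0.466%), and MEF2 matched 0 (against 3.70%). Different motifs overlapped at no printed site. Cox6a1 and Uqcr11, with the largest differences, both held the NRF-1 motif, but the 15 members with it had a median log2 fold change of 0.19, ranging from 0.05 to 0.78, and the 20 without it a median of 0.17. A match describes letters in the window and does not show binding.

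Other genes of the pathway gave a mixed picture, with 0 called by limma in any of the lists that follow. For the counts below, 23.9% of all genes tested lay above wild type on every knockout array and 24.6% below. The 35 genes taken as complex I by their Nduf symbols resembled the members, with a median of 0.20 (0.08 in knockout 3 alone). Of these, 22 (62.9%) lay above wild type on every knockout array and 0 below, with 0 at an unadjusted p under 0.05. Symbols alone were used, so Ndufa4 and Ndufa4l2 are among them and not every gene need encode a complex I subunit. The 30 measured assembly factors of complexes II to V had a median of 0.04 (-0.15 in knockout 3 alone), with 0 at an unadjusted p under 0.05. Of these, 5 lay above wild type on every knockout array (16.7%) and 4 below (13.3%), both under the shares of all genes. The carriers and the inhibitor of ATP synthase, 8 of 9 tested, had a median of 0.10 over the 9, with 6 above (66.7%) and 1 below (11.1%) and 0 at an unadjusted p under 0.05. The 14 regulators of mitochondrial genes had a median of 0.15, with 4 above wild type on every knockout array (28.6%, against 23.9% of all genes tested) and 4 below (28.6%, against 24.6%). The largest positive difference among them was 0.52, for Ppara, the nuclear receptor of fatty acid oxidation genes, and in knockout 3 alone the median was -0.08. Ppargc1a, the coactivator PGC-1alpha, read 9.32, 9.30 and 8.88 in the knockout hearts and 8.91 in the wild type heart, high in knockouts 1 and 2 as many members were. Esrra, an orphan nuclear receptor that works with it, read 8.0, 7.91 and 7.79 in the knockout hearts and 7.71 in the wild type heart. Pprc1, a coactivator related to PGC-1alpha, was the 1 regulator at an unadjusted p under 0.05 and lay in the opposite direction, at 6.98, 6.79 and 6.85 in the knockout hearts and 7.41 in the wild type heart (log2 fold change -0.54, limma adjusted p = 0.696).

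The mixture of cells in a whole heart bears on every value here, and more cells of a type cannot be told apart from more RNA per cell. The counts of markers with every knockout array on one side stand beside 23.9% of all genes tested above wild type and 24.6% below. All 12 ventricular cardiomyocyte markers were above the filter, with a median log2 fold change of 0.12, 6 above wild type on every knockout array and 1 below. Their summed level, on the linear scale, was 104916, 107919 and 100371 in the knockout hearts and 100079 in the wild type heart, so knockouts 1 and 2 were the highest, as for the members. The 12 measured macrophage markers had a median of -0.74, with 10 below wild type on every knockout array and 0 above, and summed to 3531, 3901 and 5391 in the knockout hearts and 6618 in the wild type heart. Of these 6 had an unadjusted limma p under 0.05, the smallest in Itgam, Cd68, Fcgr1 and Mrc1, with log2 fold changes of -1.59, -1.30, -1.21 and -0.96. The other 2 were Ccr2 at -2.02 and Adgre1 at -0.73. The 6 smooth muscle and pericyte markers had a median of -0.23, with 1 above wild type on every knockout array and 3 below. Of these Cnn1 and Acta2 had an unadjusted limma p under 0.05, at -0.79 and -0.76, while Rgs5 stood at 0.28 and Myh11 at 0.24. The 9 fibroblast markers, 3 above wild type on every knockout array and 1 below, had a median of -0.17 and summed to 9027, 12252 and 20733 in the knockout hearts and 13915 in the wild type heart. The 8 endothelial markers had a median of 0.29, or 0.46 in knockout 3 alone, with 5 above wild type on every knockout array and 0 below. They summed to 3697, 3956 and 4772 in the knockout hearts and 3474 in the wild type heart. The 4 atrial markers had a median of -0.54, with 1 below wild type on every knockout array and 0 above, and summed to 4384, 4619 and 10490 in the knockout hearts and 9999 in the wild type heart. Nppa, the brightest of them, made up most of each sum, at 11.62, 11.94 and 13.23 in the knockout hearts and 13.09 in the wild type heart. Myl7, Myl4 and Sln did not follow the sums. In knockout 1 they read 9.12, 9.29 and 5.75, against 8.1, 9.14 and 5.46 in knockout 3. No marker of these lists was at 0, since RMA gives every probe set a value. The 6 adipocyte markers, 4 of them tested, had a median of 0.21, with 1 above wild type on every knockout array (Cidea, 0.22) and 0 below. Ucp1, which defines brown fat, lay below the filter at 4.13 to 4.22 in the knockout hearts and 4.20 in the wild type heart. The part of these cell types in the differences of complexes II to V was not tested.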

How the data were processed

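Expression in whole hearts was measured on 4 Affymetrix Mouse Gene ST arrays, 3 MAFbx KO TAC and 1 WT TAC. The authors deposited log2 values from Affymetrix Expression Console with the RMA method, as the submitters' processing notes say, without versions. RMA corrects background, quantile-normalizes the arrays and summarises each probe set, which would hide a shift common to most genes. Scanner intensities were not analysed here, and precision is limited by the number of arrays.

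Of 35556 probe sets, 21789 had 1 gene symbol in the platform annotation, 1621 had several and 12146 were unlisted. By gene identifier 21698 matched the GRCm38.p6 reference table, with 0 symbols updated, and all 47 members matched. For the 999 genes with several probe sets the brightest was used, and 14955 genes at or above the 25th percentile (4.70) were tested with limma 3.58.1 under R 4.3.3 (moderated by eBayes, 2 residual and 5.01 prior degrees of freedom, threshold 0.05). A run on simulated data checked only the bias of the fold changes. It gave the wild type array the spread of the knockout arrays, so it cannot check that assumption. All counts and medians over members include the untested member.

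The members and lists were chosen with earlier results of these data known. The members given on every array by their brightest probe set were named by rule. They were all COX isoform pairs, complex II, the Atp5g paralogs and the 4 largest differences of complexes III, IV and V. The rule also took any at an unadjusted p under 0.05, the untested one and Cox7a2l. Other members that appear with a value of their own, such as Atp5b, Atp5o and Cox6c, are outside this rule. Of the other lists, up to 4 genes at an unadjusted p under 0.05 were named, with Ppargc1a and Esrra. Ppara, Ccr2, Adgre1, Rgs5, Myh11, Cidea, Nppa, Myl7, Myl4 and Sln were added after their values were seen. Parts within complexes, reading ranges and motifs were chosen after seeing the values. Alternatives were renewed quantile normalization, median centring, other filters, averaged probe sets, other variance models, a covariate for Xist (high or low), and leaving out each knockout array; a filter level over all single-symbol probe sets was chosen after seeing the data.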

Additional observations from a re-analysis of the deposited data

How the results depend on the processing

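Renewed quantile normalization, no filter and the Xist covariate each left 0 genes called by limma (887, 1045 and 682 at an unadjusted p under 0.05), as did leaving out any knockout array (0 to 0 genes, with 428 to 1582 unadjusted), whereas the 50th percentile filter gave 2, trend and robust moderation 11 and ordinary least squares 9. No alternative called a member of complexes II to V. Averaging the probe sets of a gene left 31 members with every knockout array above wild type, against 33 with the brightest probe set. Renewed quantile normalization gave 34 and median centring 37. The number of members with every knockout array in the fit above wild type ran from 33 to 41 when 1 knockout array was left out (fewer arrays to exceed) and has no value with the Xist covariate, which rests on knockout 3 against wild type 1 alone. With that covariate the median was 0.07 over all members and -0.03 for complex II. The Cox7a1 minus Cox7a2 change was -0.22 and the Cox8b minus Cox8a change 0.19. Among the members named by rule the sign turned for several, to -0.03 for Sdha and Sdhd, -0.01 for Atp5e, -0.02 for Atp5g3 and 0.11 for Cox8c. Of the other members, knockout 3 alone lay below wild type, against a positive mean difference, for Cox6c (-0.11), Atp5a1 (-0.01), Atp5d (-0.03) and Atp5j (-0.03). Leaving out 1 knockout array moved the complex III median between 0.20 and 0.25, Sdhc between -0.21 and 0.09, and Cox6b2 between -0.035 and 0.205. Renewed quantile normalization moved the Cox6a2 minus Cox6a1 change to -0.54 and Cox6b1 to -0.030. The cause of these shifts was not tested beyond the arrays each fit uses. No paired analysis was possible because the labels state no pairing and there is 1 wild type array.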
